A study of Mus musculus with 6 samples.

Results

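The erythroid transcription factors described here are 10 genes, chosen by symbol from the 26452 genes of a spleen RNA-seq table. The members are Gata1, Gata2, Klf1, Tal1, Gfi1b, Nfe2 and Myb, which encode DNA-binding factors, and Zfpm1, Lmo2 and Ldb1, which encode cofactors. All 10 had 1 row in the table, and all 10 passed the filter of a mean normalized count of at least 1. A normalized count is a read count divided by the size factor of its library. The spleens came from male mice aged 10 weeks of 2 groups, 3 Was knockout libraries (Was -/-, 129S6/SvEvTac-Wastm1Sbs/J) named KO451, KO452 and KO457 and 3 wild-type libraries (129S6/SvEvTac) named WT453, WT454 and WT455. The knockout is carried by every cell of the animal, and whole spleen was sampled, so blood cells, vessels and stroma are read together. The labels do not say that each library is a separate animal, and p-values measure the spread between these libraries only.

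Red cells form from progenitors in which a small network of transcription factors acts on shared regulatory sites. GATA1 binds GATA motifs and, with its cofactor FOG1 (the product of Zfpm1), turns on red cell genes, while GATA2 acts earlier, in stem cells, progenitors and mast cells, and gives way to GATA1 during maturation. TAL1 binds E-box motifs and joins GATA1 in a complex held together by LMO2 and LDB1. KLF1 binds CACCC motifs and activates globin, membrane and heme genes. GFI1B is a transcriptional repressor that acts in the red cell and megakaryocyte lineages, NFE2 acts in globin expression and platelet formation, and MYB keeps progenitors dividing. The mouse spleen, unlike that of adult people, forms red cells in its red pulp and can expand this output under demand.

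The promoters of 3 members with higher levels in knockout spleens and of Gata2, the GATA paralog with like levels in both groups, are shown because the members are themselves described targets of GATA factors. Each comes from the 250 bases before a RefSeq start in GRCm38.p6, on the strand of the gene, and the Klf1 window is printed up to the end of its E-box, where the GENCODE model of the gene begins. Klf1 lies at chr8:84901732-84901928 on the plus strand, Gata1 at chrX:7967911-7968160 on the minus strand, Gfi1b at chr2:28621983-28622232 on the minus strand and Gata2 at chr6:88193641-88193890 on the plus strand. Capitals mark matches on either strand to GATAA, which GATA factors bind, CANNTG, the E-box, and CCNCNCCC, a motif of KLF proteins.
Klf1: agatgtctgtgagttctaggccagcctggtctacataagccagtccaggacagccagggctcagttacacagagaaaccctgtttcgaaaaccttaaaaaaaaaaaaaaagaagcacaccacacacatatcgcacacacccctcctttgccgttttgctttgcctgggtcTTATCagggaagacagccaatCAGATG
Gata1: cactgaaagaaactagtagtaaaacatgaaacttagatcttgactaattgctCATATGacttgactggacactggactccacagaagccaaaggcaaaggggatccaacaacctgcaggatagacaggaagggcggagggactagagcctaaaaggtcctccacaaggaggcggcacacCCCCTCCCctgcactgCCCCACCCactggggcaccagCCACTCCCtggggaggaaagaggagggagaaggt
Gfi1b: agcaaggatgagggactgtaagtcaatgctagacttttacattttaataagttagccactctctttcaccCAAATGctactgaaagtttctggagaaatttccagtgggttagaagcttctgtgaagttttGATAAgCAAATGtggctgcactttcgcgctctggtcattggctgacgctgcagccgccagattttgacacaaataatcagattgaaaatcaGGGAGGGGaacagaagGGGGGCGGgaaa
Gata2: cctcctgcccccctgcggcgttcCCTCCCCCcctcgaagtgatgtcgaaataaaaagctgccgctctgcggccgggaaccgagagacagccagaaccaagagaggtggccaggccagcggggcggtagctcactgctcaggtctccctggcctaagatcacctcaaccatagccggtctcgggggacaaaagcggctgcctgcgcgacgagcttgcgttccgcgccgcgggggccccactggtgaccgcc

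In Klf1 a GATAA match on the minus strand began 80 bases before the start and an E-box 59 bases before it. In Gfi1b a GATAA match began 119 bases before the start, with E-boxes 113 and 180 bases before it. The Gata1 window held 3 KLF matches, at 71, 55 and 34 bases before the start, and 1 E-box. That window lies inside the longer GENCODE model of Gata1. The printed Gata2 window, the one at the start of its GENCODE model, held 1 KLF match and neither of the other motifs. Another RefSeq window of Gata2, at chr6:88198414-88198663, held 6 KLF matches and neither of the others. Promoters were matched in RefSeq for 8 of the 10 members, 12 windows in all, and not for Nfe2 and Lmo2. GATAA was found in 4 of the 12 windows (33.3%), against 22.6% of all 32851 windows of that length, and in 15 of the 23 windows of red cell target genes (65.2%). CCNCNCCC was found in 10 of the 12 windows (83.3%), against 45.9% of all windows and 43.5% of the target gene windows. CANNTG was found in 4 (33.3%), against 66.2% of all windows and 69.6% of the target gene windows. Matches of CCNCNCCC can overlap each other in runs of C. A match describes letters only.

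Reads assigned to genes numbered between 30661759 and 38402758 per library, and the members had between 140 reads (Gata2 in WT454) and 10599 reads (Ldb1 in WT453), so a count near 0 limits none of them. Was itself had log2 normalized counts between 8.67 and 8.99 in the knockout and between 12.02 and 12.68 in the wild-type libraries (log2 fold change -3.66 ± 0.25, SE, limma adjusted p = 0.0117). Markers of B cells, T cells and red pulp macrophages, the main populations of spleen, were present in every library. WT453 stood apart from the other libraries in immediate early genes, with a mean log2 deviation of 1.60 from the mean of the 6 libraries, and in red pulp macrophage genes (-1.71). For neutrophil genes the libraries were spread widely, with WT453 at 1.81, KO457 at 1.41 and WT454 at -1.76, and likewise for stem and progenitor genes (1.25, 0.81 and -1.10). Haemoglobin transcripts took between 2.56% and 7.36% of reads in knockout and between 0.204% and 1.15% in wild-type libraries, with KO451 the highest and WT453 the lowest.

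Klf1, Tal1, Gfi1b and Gata1 had their 3 knockout libraries above their 3 wild-type libraries. Klf1, the CACCC-binding activator, had normalized counts of 9351 in KO451, 3062 in KO452 and 3699 in KO457, against 429.8 in WT453, 615 in WT454 and 1223 in WT455. Its lowest knockout library lay above its highest wild-type library, and KO451 stood well above the other knockouts. The log2 fold change (knockout minus wild type, on log2 of the normalized count plus 1) was 2.78 ± 0.52 (SE), with a 95% interval of 1.56 to 4.01. The limma adjusted p was 0.344, and an exact permutation test gave p = 0.1, the smallest that 3 against 3 allows.

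Tal1, the E-box factor that joins GATA1 in one complex, had normalized counts of 11152 in KO451, 2872 in KO452 and 3768 in KO457, against 934 in WT453, 465 in WT454 and 1471 in WT455. The groups did not overlap, and KO451 was again the highest. For Tal1 the log2 fold change was 2.52 ± 0.59 (limma adjusted p = 0.344). Gfi1b, the repressor, had normalized counts of 4251, 1358 and 1870.0 in KO451, KO452 and KO457 and of 542, 383 and 863 in WT453, WT454 and WT455. The groups were separate, with the same library highest and the same library lowest within each group as in Tal1. For Gfi1b the difference on the log2 scale was 1.97 ± 0.48 (limma adjusted p = 0.344).

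Gata1, the central activator of the lineage, had normalized counts of 5749.7 in KO451, 1954 in KO452 and 2695 in KO457, against 1097 in WT453, 629 in WT454 and 1051 in WT455. The groups did not overlap, and KO452, the lowest knockout, lay closer to the wild types than to KO451. Knockout and wild-type Gata1 differed by 1.79 ± 0.43 on the log2 scale, with a 95% interval of 0.79 to 2.80 and a limma adjusted p of 0.344. In a whole spleen, more red cell precursors and more RNA of these genes per precursor cannot be told apart.

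**Figure D1:**
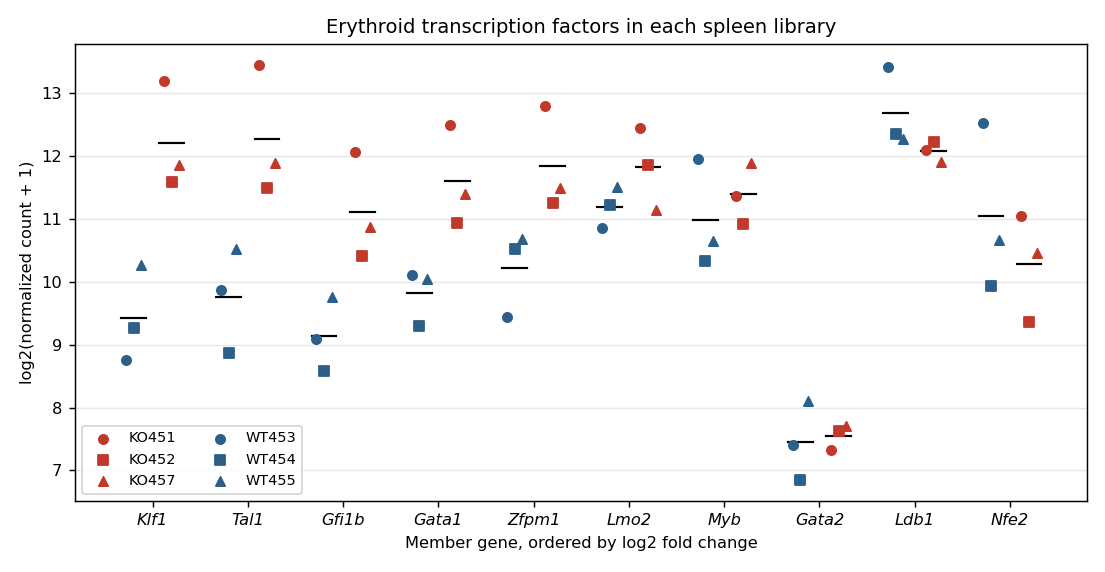
Log2(normalized count + 1) of each member (y axis) in each library, with members on the x axis ordered by log2 fold change, knockout libraries in red, wild-type libraries in blue and black bars at the group means (n = 3 per group). Klf1, Tal1, Gfi1b, Gata1 and Zfpm1 have all red points above all blue points, Ldb1 has all red points below, and the other 4 members overlap.

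The other 3 DNA-binding factors did not separate in this way. Gata2, the GATA factor of stem cells, progenitors and mast cells, had normalized counts of 159.7, 196 and 209 in KO451, KO452 and KO457 and of 169, 114 and 273 in WT453, WT454 and WT455. All knockout values lay inside the wild-type range, and KO451, the highest library for Gata1, was the lowest knockout for Gata2. For Gata2 the log2 fold change was 0.10 ± 0.38, with a 95% interval of -0.79 to 0.99 (limma adjusted p = 0.952), which leaves room for a near 2-fold difference in either direction. Its sign turned when libraries were scaled by their totals (-0.04), with array quality weights (-0.22) and without WT454 (-0.20).

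Myb, the progenitor factor, had normalized counts of 2641, 1920.0 and 3795 in KO451, KO452 and KO457 and of 3932, 1282 and 1608 in WT453, WT454 and WT455. WT453 was the highest of the 6 libraries and the other wild types were the lowest. For Myb the log2 fold change was 0.42 ± 0.45 (limma adjusted p = 0.754), and 0.87 with array quality weights. With single libraries left out it ran from 0.09 (without WT454) to 0.90 (without WT453). It was 0.16 without KO457, 0.25 without WT455 and 0.66 without KO452. Nfe2, the factor of globin expression and platelet formation, had normalized counts of 2108, 656 and 1401 in KO451, KO452 and KO457 and of 5842, 979 and 1613 in WT453, WT454 and WT455. WT453 alone held the top of the range, and the remaining 5 libraries overlapped. Its log2 fold change was -0.75 ± 0.70 (limma adjusted p = 0.722), and with single libraries left out it ran from -1.30 (without WT454) to -0.01 (without WT453), with -1.13 without KO451 and -0.29 without KO452.

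Genes of granulocyte progenitors were also high in WT453. Mpo, the myeloperoxidase of granules, had a log2 normalized count of 16.23 there and between 11.16 and 14.25 in the other 5 libraries. Elane, neutrophil elastase, was at 14.50 in WT453 and at most 13.27 elsewhere, and Prtn3, another granule protease, at 14.99 and at most 13.44. Gfi1, the paralog of Gfi1b that acts in granulocytes, was at 10.94 in WT453 and between 7.48 and 9.13 elsewhere. Over the whole list of 12 stem and progenitor markers, the summed level was between 200.4 and 4388 CPM (reads scaled to a common library total) in wild-type and between 362 and 1345 CPM in knockout libraries, and none of the 12 was at 0 in every library. Mpo, Prtn3 and Elane held most of that sum, with mean wild-type levels of 841, 351 and 261 CPM, against 33.9 CPM for Flt3. The sum therefore says little about the other markers of the list. The part of these cells in the Nfe2 and Myb values was not tested.

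Of the cofactors, Zfpm1 was higher in the knockout, Lmo2 overlapped and Ldb1 was lower. Zfpm1, which encodes the GATA1 partner FOG1, had normalized counts of 7095 in KO451, 2436 in KO452 and 2859 in KO457, against 695 in WT453, 1463 in WT454 and 1644 in WT455. The groups did not overlap, and WT453 was the lowest library. Its log2 fold change was 1.63 ± 0.49 (limma adjusted p = 0.355) and 1.24 without WT453. Zfpm1 overlaps the GENCODE model Gm20388 on the same strand. Gm20388 has no row in the deposited table, so whether the overlap cost Zfpm1 reads cannot be seen here.

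Lmo2, the bridging protein of the GATA1 and TAL1 complex, had normalized counts of 5567, 3712 and 2252 in KO451, KO452 and KO457 and of 1849, 2371 and 2887 in WT453, WT454 and WT455. KO451 and KO452 lay above all wild types and KO457 within them. The log2 fold change of Lmo2 was 0.63 ± 0.35 (limma adjusted p = 0.539), with 0.31 without KO451, 0.96 without KO457 and 0.23 with array quality weights. Ldb1, the scaffold that joins such complexes across distant sites, had normalized counts of 4352, 4785 and 3816 in KO451, KO452 and KO457 and of 10924, 5185 and 4897 in WT453, WT454 and WT455. The knockout values lay below all wild types, but WT455 and KO452 were close, and WT453 was far above both. The log2 fold change of Ldb1 was -0.60 ± 0.33 (limma adjusted p = 0.535) and -0.23 without WT453. Ldb1 overlaps Pprc1 on the other strand, and without a stated strand setting their reads cannot be told apart where they overlap. Lmo2 and Myb overlap little expressed models on the other strand (4931422A03Rik and Gm26577).

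**Figure D2:**
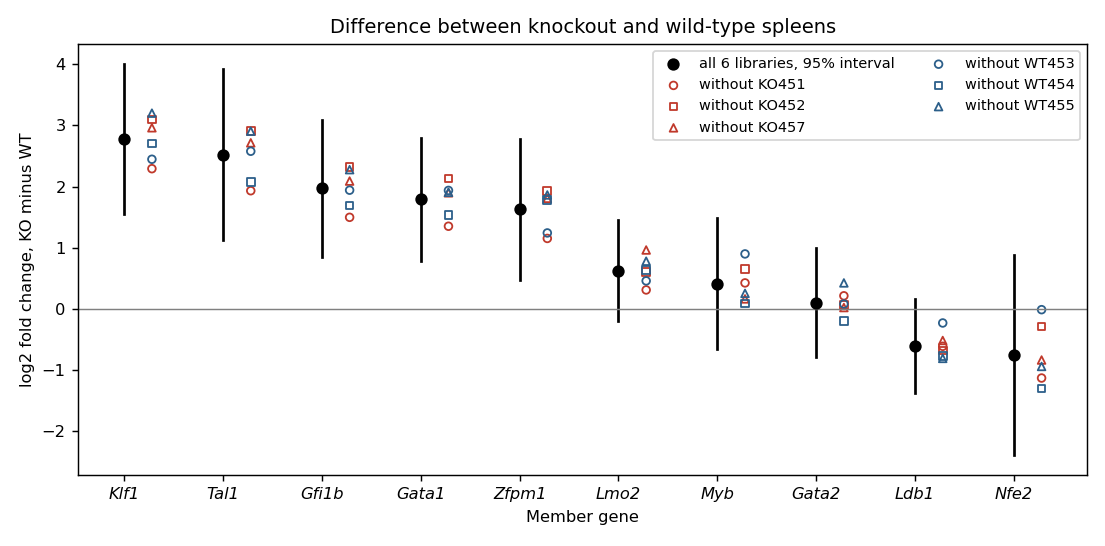
Log2 fold change, knockout minus wild type (y axis), of each member (x axis) from limma over all 6 libraries with its 95% interval (black), and with each library left out in turn (open symbols). The intervals of Klf1, Tal1, Gfi1b, Gata1 and Zfpm1 lie above 0 with every left-out value above 1, and those of the other 5 members include 0.

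Counted over the members, 0 of 10 passed limma's adjusted threshold, which 0.00906% of the 22081 genes tested passed. Without adjustment, limma gave 5 members a p under 0.05 with higher knockout levels, as it did 5.5% of tested genes, and 0 with lower levels (5.46% of tested genes). The count of 5 became 6 with array quality weights and without WT453, where Myb was added. It was also 6 without KO457, where Lmo2 was added. All knockout libraries lay above all wild-type libraries in 5 members (9.54% of tested genes) and below them in 1, Ldb1 (9.93% of tested genes). At least 2-fold higher were 5 members, against 10.1% of tested genes. The authors' deposited table listed 5 members as higher at an FDR under 0.05 (2.14% of its genes) and 0 lower (1.44%), with FDR values of 3.5e-06 for Klf1, 0.000461 for Gata1, 0.000651 for Gfi1b, 0.00826 for Zfpm1 and 0.0264 for Tal1. The 5 were the same genes under each of these rules. The median log2 fold change of the 10 members was 1.13, and that of all tested genes -0.03. The members were proposed with results of these data known, so their counts are descriptions.

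KO451 weighed on these values. It was the highest of the 6 libraries in 6 members and the highest knockout in 7, and KO452 was the lowest knockout in 7. Without KO451 the log2 fold change was 2.29 for Klf1, 1.93 for Tal1, 1.35 for Gata1 and 1.15 for Zfpm1, with Gfi1b between Tal1 and Gata1. With any one library left out, these 5 members stayed at least 2-fold higher in the knockout.

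Levels of different genes were compared as mean normalized counts per kilobase of exon. In wild-type spleens the order ran from Ldb1 (1520.2 ± 738, SD, n = 3), Lmo2 (1094 ± 239.6) and Nfe2 (941 ± 885) through Klf1 (494 ± 271), Gata1 (379.7 ± 106), Zfpm1 (362 ± 144) and Gfi1b (326 ± 134) to Myb (255 ± 162), Tal1 (218 ± 115) and Gata2 (34.4 ± 15.0). Neighbours in that order differed by less than 1 SD of the more variable gene of each pair, except that Gata2 was below Tal1 by more than that. In knockout spleens Klf1 stood first (3510.3 ± 2262), followed by Lmo2 (1775 ± 767), Gata1 (1422 ± 825), Gfi1b (1362 ± 844), Tal1 (1354 ± 1038) and Zfpm1 (1179 ± 736). Ldb1 (937 ± 105), Nfe2 (465 ± 243), Myb (312 ± 106) and Gata2 (34.9 ± 4.71) came after them. By the means, Klf1 was in the fourth place in wild types and the first in knockouts, and Gata2 was last in both groups. The neighbours from Klf1 to Ldb1 differed by less than 1 SD of the more variable gene of each pair. That SD is between libraries, while the genes of a pair are read in the same libraries. Klf1 was the highest member in each knockout library, at 6112 in KO451, 2001 in KO452 and 2418 in KO457. The next member was Lmo2 in KO451 (2570) and KO452 (1714) and Gata1 in KO457 (1105).

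The ratio of the GATA factors, which no scaling of libraries can move apart from the added count, separated the groups. Gata1 exceeded Gata2 on the log2 scale by 5.16 in KO451, 3.31 in KO452 and 3.68 in KO457, and by 2.69 in WT453, 2.45 in WT454 and 1.94 in WT455. Every knockout value was above every wild-type value. The means were 4.05 ± 0.98 (SD, n = 3) and 2.36 ± 0.38, a difference of 1.69 with an exact permutation p of 0.1, the smallest the design allows. Without KO451 the difference was 1.14. Gata1 alone differed by 1.79 and Gata2 by 0.10, so the difference in their ratio largely restates that of Gata1.

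The members were also set against the red cell genes they are known to regulate. A list of 30 textbook targets of GATA1 and KLF1 (globins, heme enzymes, membrane proteins and receptors) had 29 genes in the table, all 29 of them tested. All 29 were higher in the knockout, at a median of 2.49 on the log2 scale and a range of 1.12 to 3.20, where 47.7% of all tested genes were higher with a median of -0.03. None passed limma's adjusted threshold, and 29 had an unadjusted limma p under 0.05 with higher knockout levels (5.5% of tested genes). All knockout libraries lay above all wild types in 28 (9.54% of tested genes), all but Bcl2l1, a survival gene. The authors' deposited comparison gave 25 of them as higher at an FDR under 0.05 (2.14% of its genes). The list was chosen with earlier results of these data known, so its counts are descriptions. Examples are Epb42 (2.94 ± 0.58 SE), a membrane skeleton protein, Car2 (2.73 ± 0.50), a carbonic anhydrase, and the alpha globin Hba-a1 (2.75 ± 0.61), which has a near-identical copy. The median was 1.85 without KO451 and 2.20 without WT453.

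Subtracting the mean log2 value of these 29 targets from each member, library by library, gave the level of a member relative to red cell RNA. For Klf1 this difference was -1.26, -0.98 and -1.03 in KO451, KO452 and KO457 and -1.67, -1.44 and -1.30 in WT453, WT454 and WT455. The knockout values of Klf1 were all above its wild-type values, by 0.38 in the means (exact permutation p = 0.1). For Tal1 the difference was -1.003, -1.07 and -0.999 in the knockouts and -0.55, -1.84 and -1.03 in WT453, WT454 and WT455. These values overlapped, with group means 0.12 apart (exact permutation p = 0.8) and the sign turning without WT454 (-0.23). Gata1 (-0.61) and Gfi1b (-0.43) were lower relative to the targets in the knockout, with overlapping groups and an exact permutation p of 0.2 each. Without WT453 both differences were -0.23.

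The other 6 members were lower relative to the targets in all 3 knockouts than in all 3 wild types. The differences were -0.77 for Zfpm1, -1.78 for Lmo2, -1.99 for Myb, -2.30 for Gata2, -3.00 for Ldb1 and -3.15 for Nfe2. The target mean itself was 2.40 higher in the knockouts, so a gene at the same level in both groups takes a value of -2.40 here. These values therefore restate the higher target mean, and no test of them is given. Gata2 lay close to that value, Zfpm1, Lmo2 and Myb above it, and Ldb1 and Nfe2 below it.

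**Figure D3:**
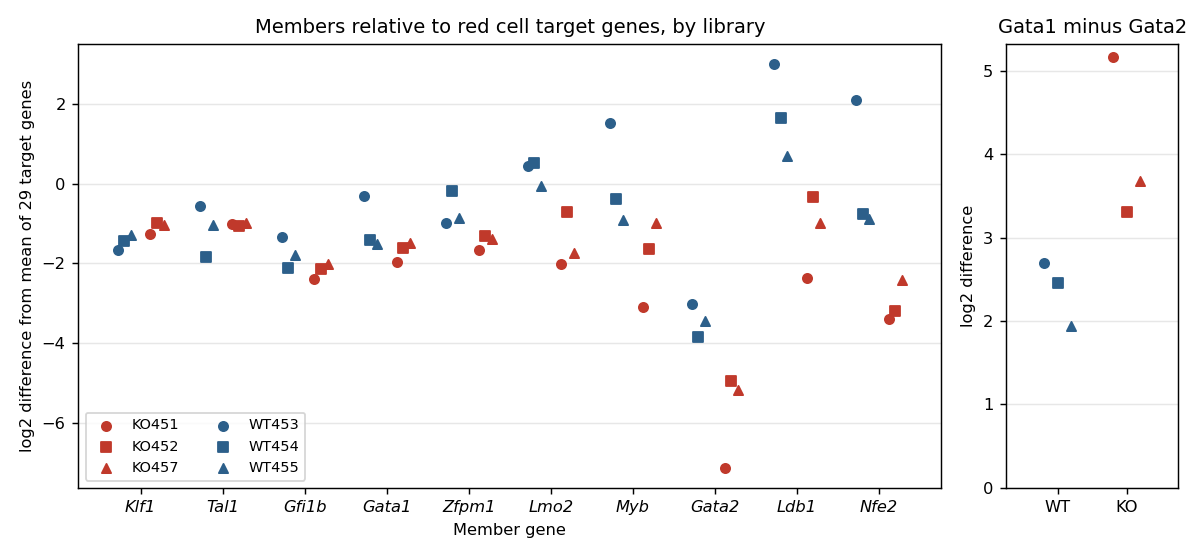
Left, the log2 value of each member less the mean log2 value of 29 GATA1 and KLF1 target genes in the same library (y axis), by member (x axis), with knockout libraries in red and wild-type libraries in blue. Right, Gata1 minus Gata2 on the log2 scale. Klf1 lies higher in the knockouts, Tal1, Gfi1b and Gata1 overlap between the groups, the other 6 members lie lower in the knockouts, and Gata1 minus Gata2 is above 3 in all knockouts and below 3 in all wild types.

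Partners of the members went in both directions. Among 9 partners of the LDB1 complex 5 were higher and 4 lower, at a median of 0.08 on the log2 scale, and 0 past the adjusted limma threshold. Ssbp3, a single-stranded DNA-binding protein that stabilises LDB1, was at 1.26 ± 0.40 (SE) with separate groups, and its relative Ssbp2 at 0.44 ± 0.30, also separate. The separation of Ssbp2 was narrow, with log2 normalized counts of 8.94 in KO452 and 8.92 in WT453. Tcf3, the E protein partner of TAL1, was at 0.24 ± 0.24. Of 5 corepressor genes of GFI1B and its paralog, 2 were higher and 3 lower (median -0.0024), among them Kdm1a, the histone demethylase, at -0.04 ± 0.23. Of the 6 small MAF proteins and relatives of NFE2, 2 were higher and 4 lower (median -0.0019), with Mafk, a dimer partner of NFE2, at 0.24 ± 0.24 and Mafg at 0.12 ± 0.63. For the corepressor and NFE2 lists and the LDB1 partners the sign of the median turned under some settings.

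Other regulators of the red cell lineage were mixed. Of 15 genes 9 were higher and 6 lower, with a median of 0.17 (-0.11 without WT453), and 0 passed the adjusted limma threshold. Sox6, which acts in globin silencing and red cell maturation, was at 2.51 ± 0.66 (SE), E2f2 and E2f4, cell cycle factors used in red cell maturation, at 1.24 ± 0.45 and 0.89 ± 0.26, and Nfia at 0.59 ± 0.25, each with knockout libraries above all wild types. For E2f2 the lowest knockout and the highest wild type were nearly level, with log2 normalized counts of 12.803 in KO452 and 12.801 in WT453. Stat5a, a transducer of erythropoietin signals, was at -0.23 ± 0.18 with knockout libraries below all wild types. That separation was narrow too, at 10.75 in KO452 and 10.76 in WT455.

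**Figure D4:**
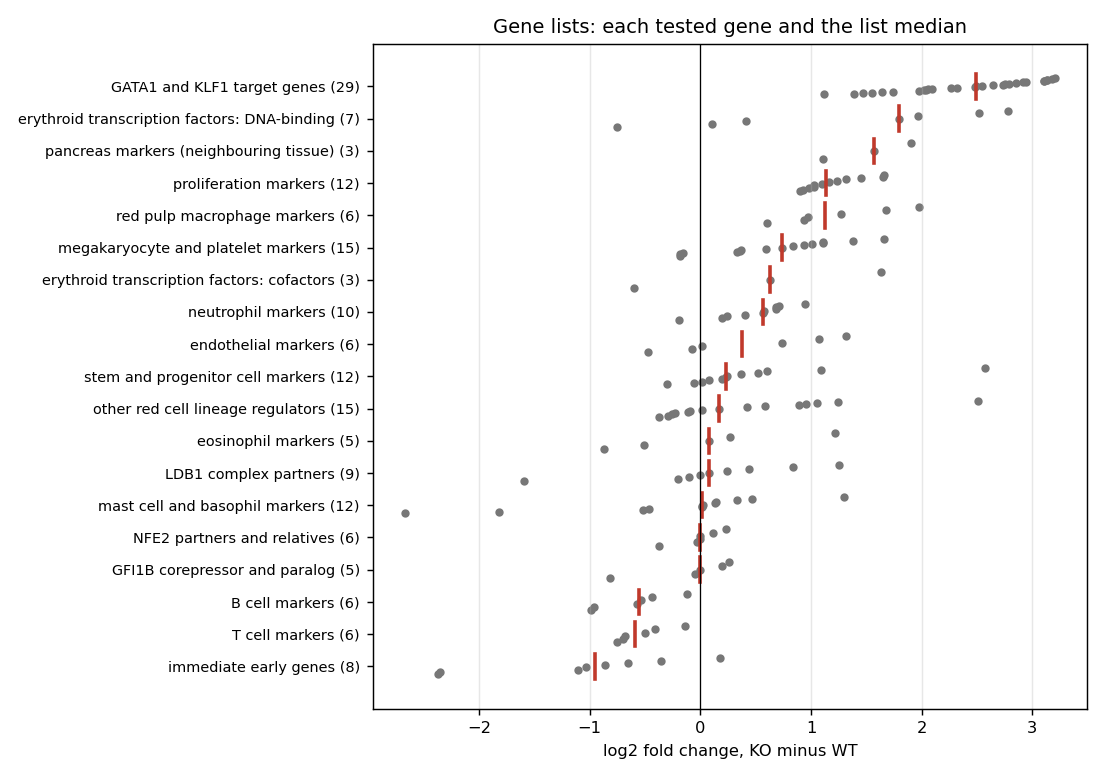
Log2 fold change, knockout minus wild type (x axis), of every tested gene (grey points) in each gene list (y axis, number of tested genes in parentheses), with the list median in red. The GATA1 and KLF1 target genes lie between 1.12 and 3.20, whereas the partner lists centre near 0 and the neutrophil list was chosen after values were seen.

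Members are also made in other cells, and markers of those cells were read beside them. Of 15 megakaryocyte and platelet markers, cells that also use GATA1, FOG1, GFI1B and NFE2, 12 were higher in the knockout with a median log2 fold change of 0.73 (0.33 without WT453), and summed levels of 117 to 227 CPM in knockout and 96.0 to 171 CPM in wild-type libraries overlapped. Gp9, a platelet surface protein, was at 1.66 ± 0.47 (SE), Clec1b, a platelet lectin receptor, at 1.11 ± 0.41, and Vwf, von Willebrand factor, at 0.94 ± 0.32. All knockout libraries lay above all wild types in 4 of the 15 (9.54% of tested genes), these genes among them. The groups overlapped for Pf4 (0.73 ± 0.34). They also overlapped for Itgb3 (-0.18 ± 0.25), the marker with the highest mean level and 1 of the 3 that were lower. The mean deviation of this list from the mean of the 6 libraries was -0.17 in KO451 and 0.70 in KO452. KO451 was the highest library in 6 of the 10 members, but the lowest knockout for Gata2. KO452 was the highest knockout for Ldb1. What megakaryocytes and platelets contributed to the members' values was not tested. Of 12 tested mast cell and basophil markers, cells that use GATA2, 8 were higher and 4 lower with a median of 0.02. Hdc, their histamine-forming enzyme, was at -0.46 ± 0.82. Of 5 eosinophil markers 3 were higher and 2 lower, with a median of 0.08.

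All 12 proliferation markers were higher, with a median of 1.13 (1.79 without WT453, 0.73 without KO451 and 0.76 without WT454), and 0 passed the adjusted limma threshold. Ccnb1, a mitotic cyclin, was at 1.66 ± 0.43 (SE) and Mcm2, a replication helicase subunit, at 1.10 ± 0.36. The groups were separate in these 2 genes and overlapped in the rest of the list. By the mean deviation of the list, WT453 (0.47) lay above KO452 (-0.12). KO451 was the highest library in this list, at 1.40 above the mean of the 6, as it was in 6 of the members. All 6 red pulp macrophage markers were higher (median 1.12), and all 6 B cell and all 6 T cell markers were lower (medians -0.55 and -0.59). Without WT453 these medians were 0.63 for macrophages, -1.11 for B cells and -0.96 for T cells. The B cell median was -0.19 without WT454 and -0.84 without KO452, and the T cell median -0.33 without WT454 and -0.32 without WT455. The part of these cells in the members' values was not tested.

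**Figure D5:**
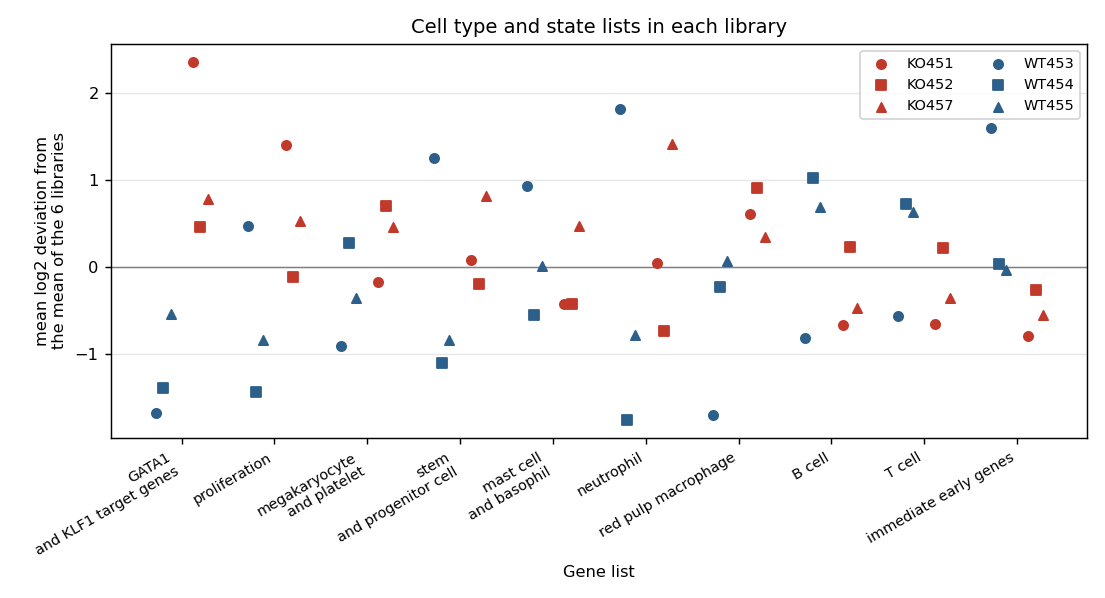
Mean log2 deviation of each gene list from the mean of the 6 libraries (y axis), by list (x axis), with knockout libraries in red and wild-type libraries in blue. The red cell target list separates the groups with KO451 at 2.35 and WT453 at -1.67, and WT453 is highest in the progenitor, mast cell, neutrophil and immediate early lists. The neutrophil list was chosen after values were seen.

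The genes most like a member were found by the root mean square difference of centred log2 values over the 6 libraries, among 10707 genes with a mean normalized count of at least 100. For Klf1 these were Car2 (0.06 apart), Hemgn (0.14) and Fhdc1 (0.19), among others. Hemgn encodes a nuclear protein of red cell precursors. For Gata1 they were Epor, the erythropoietin receptor (0.08), Orc1, an origin-binding protein (0.10), Prdx2, a red cell peroxidase (0.10), Ccnb1 (0.11) and Chac2 (0.11). For Gata2 they were Kctd17, Pdf, Ptch1, Atg7 and Commd8 (0.10 to 0.22), and for Myb they were Mettl9, Acsl1, Cox6c, Cep55 and Mpp7 (0.10 to 0.13).

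Gata1 lies on the X chromosome (7959260 to 7978071 in GRCm38, minus strand), 103.4 kb from the targeted gene Was (8081453 to 8090498). Between them GENCODE places 7 genes, of which 3 were tested. Suv39h1, a histone methyltransferase and the one of the 3 with a mean above 3 CPM, was at 0.22 ± 0.38 (SE) with overlapping groups. Among the other members, GENCODE places Klf1 at chr8:84901928-84905291 (plus strand), Tal1 at chr4:115056426-115071755 (plus strand), Gfi1b at chr2:28609450-28621982 (minus strand), Gata2 at chr6:88193891-88207032 (plus strand) and Myb at chr10:21124935-21160984 (minus strand). It places Nfe2 at chr15:103248212-103258403 (minus strand), Zfpm1 at chr8:122282141-122337251 (plus strand), Lmo2 at chr2:103957986-103981878 (plus strand) and Ldb1 at chr19:46031570-46045214 (minus strand), all in GRCm38. Klf1 and Zfpm1 share chromosome 8 and Gfi1b and Lmo2 chromosome 2, and all 10 members are protein-coding.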

How the data were processed

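RNA-seq of 6 spleen libraries was deposited as 1 table of 26452 genes. The submitters' processing notes name the build GRCm38 and, without roles, StringTie 1.3.1c, STAR 2.5.3a, FastQC 0.11.5 and DESeq. Details of counting, annotation, filters and strand were not given in the sources used here. Deposited values are on a log2 scale. Dividing reads by a library size factor, adding 1 and taking log2 gives each value: undoing these steps returned whole reads for 100% of them (tolerance 0.001). The fold change, p-value and FDR columns are the authors' deposited comparison. Column names of the knockout libraries carry a suffix whose meaning is not stated, and it cannot be told apart from genotype.

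Limma 3.58.1 in R 4.3.3, with an intensity trend, was fitted to the log2 values of 22081 genes with a mean normalized count of at least 1, without covariates, with Benjamini-Hochberg adjustment over all of them and a threshold of 0.05. The test was checked on simulated data. Single values were compared by two-sided exact permutation. The members and 18 gene lists were chosen with earlier results of these data known. A further list of neutrophil genes was added after the values were seen. Text names came from all members, plus the 4 smallest p-values and the highest level of a list, plus the genes most like Gata1, Klf1, Gata2 and Myb. Elane, Prtn3, Bcl2l1, Stat5a and Suv39h1 fall outside that rule and were named after their values were seen. Alternatives changed the scaling, pseudocount, filter, weights or model, or left out each library. Positions and exon lengths are from GENCODE M21 (GRCm38), in which 26404 identifiers were found. Some genes that the naming rule takes are not reported here.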

Additional observations from a re-analysis of the deposited data

How the results depend on the processing

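With 3 libraries a group, limma called 2 genes over the whole table, 1 with a pseudocount of 10, 16 with array quality weights, 1 with voom on whole reads, and between 0 and 2 with single libraries left out. The cause was not tested. No member passed the adjusted threshold in any of the 17 alternatives run. The adjusted p ranged from 0.0631 to 0.69 for Klf1. Among single members, signs turned for Gata2, at -0.043 with scaling by library total, -0.22 with array quality weights and between -0.20 (without WT454) and 0.43 with single libraries left out, and for Tal1 less the target mean, between -0.23 (without WT454) and 0.41 with single libraries left out. Scaling by library total moved the median of all genes by -0.13. The sign of the median turned in at least 1 alternative for the LDB1 partner, GFI1B corepressor, NFE2 partner, other red cell regulator, mast cell, eosinophil, progenitor and endothelial lists. No paired analysis was made because the labels give no pairing of knockout with wild-type libraries. Depth limits none of the members, of which the lowest had 140 reads.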
